A study of Homo sapiens with 9 samples.

Results

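The genes described here are those by which breast tumors are sorted into subtypes: the hormone receptors ESR1 and PGR, the receptor tyrosine kinases EGFR, ERBB2, ERBB3 and ERBB4, and the luminal transcription factors GATA3, FOXA1 and XBP1. They were chosen by name, 9 of the 18417 genes measured, and each is given by its probe with a single gene symbol and the highest mean over all arrays. ESR1 had 2 such probes and the other members had 1 each. By their labels the cells were MDA-MB-231, a line from a human breast tumor of the triple negative kind, which the marker values below do not bear out equally for all arrays. They received no peptide (UT), a scrambled control peptide (SCR), or 2.5 μM of SID, and the labels give 24 h for all 3 groups. SID is a peptide that carries the SIN3 interaction domain and occupies the PAH2 domain of the corepressor SIN3A. The labels give no dose for SCR, and the methods of the study give the same dose for both peptides. Total RNA was measured on Affymetrix arrays, 1 per sample, with 3 in each group and 9 in all. All values are log2 signals as deposited, and a difference of 1 on this scale is a 2-fold change. The methods of the study speak of a pair of independent biological replicates, while the series holds 3 arrays a group, and the labels do not say which of these came from separate cultures. The p-values measure the spread between these arrays, part of which may be technical. The growth protocols name MDA-MB-231 alone, and the titles of the UT samples carry a "(2)" that is not explained.

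Tumors are called triple negative when they lack the estrogen receptor, encoded by ESR1, and the progesterone receptor, encoded by PGR, and do not overexpress HER2, the product of ERBB2. PGR is itself a target gene of the estrogen receptor. In luminal breast cells, FOXA1 opens chromatin for the estrogen receptor and GATA3 binds with both. XBP1 is a luminal factor as well and is better known as the transcription factor of the unfolded protein response. The 4 ERBB receptors act as pairs: EGFR and ERBB4 bind ligands and are active kinases, ERBB2 has no ligand of its own, and ERBB3 has little kinase activity and signals through its partner. EGFR is typically abundant in the basal-like and mesenchymal-like triple negative lines.

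The arrays did not fall into the 3 labelled groups. The arrays of SCR and SID replicates 1 and 2 formed a set of 4, and SCR replicate 3, SID replicate 3 and the 3 UT arrays formed a set of 5. Across all tested probes, Pearson's r was 0.963 to 0.995 within the 4 arrays, 0.992 to 0.997 within the 5 arrays and 0.908 to 0.929 between the sets. Among the 4 arrays r was 0.9946 between the SCR arrays, 0.9929 between the SID arrays and 0.9632 to 0.9762 between SCR and SID. MDA-MB-231 markers differed in the same way: 12 of 14 listed markers were measured, and 11 of the 12 were higher on each of the 4 arrays than on any of the 5, as were 16.8% of all genes, while 15.6% were lower. The mean level of the 12 markers was 10.77 to 10.83 on UT arrays, 10.77 to 12.64 on SCR arrays and 10.76 to 12.40 on SID arrays, with both lower ends of the peptide groups set by replicate 3. AXL, CAV1, CD44, FN1, PLAU, S100A4 and ZEB1, named after their values were seen, lay more than 1 log2 apart between the sets. By their means over the 9 arrays, none of the 12 markers was as low as the bulk of olfactory receptor probes. On SID replicate 1 SPARC was 6.97, within the range of those probes given below. CDKN2A, which is known to be deleted in MDA-MB-231 and was looked at after values had been seen, was 10.97, 11.21 and 10.96 on the UT arrays, 9.91, 10.03 and 10.97 on SCR, and 7.85, 7.58 and 11.17 on SID. On 7 of the 9 arrays the level was 9.91 or higher, and the lowest level, 7.58, was also above the bulk of olfactory receptor probes. Why a gene known to be deleted gave these levels was not tested. A supplement of the study also heads SCR replicate 3 with a longer treatment than the labels give. What sets the arrays apart was not tested, and the members' differences between SID and SCR are therefore also given by replicate number. That SCR and SID arrays of the same number belong together was taken as given.

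Because the SID decoy displaces factors from SIN3A, the promoters of the members were searched for the core sites of such factors and of Wnt, estrogen receptor, GATA and forkhead factors. The windows are the 250 bases before a start site in RefSeq's annotation of GRCh38.p14, read on the strand of the gene, and 8 of the 9 members had at least 1 window. The letters searched on both strands were TGACAG for TGIF1, CACGTG for the MAX and MXD family, CTTTGA for a first and CTTTGT for a second form of the TCF/LEF site, AGGTCA for 1 arm of an estrogen response element, AGATAA for GATA and TGTTTAC for forkhead factors. The most upstream windows of the 3 luminal factors are shown, with matches in capitals, since these genes carry the widest differences of the set. FOXA1 lies at chr14:37595250-37595499 on the minus strand, GATA3 at chr10:8045083-8045332 on the plus strand and XBP1 at chr22:28800570-28800819 on the minus strand.
FOXA1: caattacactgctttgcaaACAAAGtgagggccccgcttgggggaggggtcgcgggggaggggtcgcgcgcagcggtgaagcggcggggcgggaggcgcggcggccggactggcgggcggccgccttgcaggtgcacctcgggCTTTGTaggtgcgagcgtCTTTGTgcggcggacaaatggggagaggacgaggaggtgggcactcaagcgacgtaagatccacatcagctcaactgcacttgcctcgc
GATA3: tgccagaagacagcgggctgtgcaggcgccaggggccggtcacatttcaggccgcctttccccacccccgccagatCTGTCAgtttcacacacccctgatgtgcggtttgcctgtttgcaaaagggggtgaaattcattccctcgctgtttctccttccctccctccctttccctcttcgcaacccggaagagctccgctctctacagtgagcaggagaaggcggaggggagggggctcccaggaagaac
XBP1: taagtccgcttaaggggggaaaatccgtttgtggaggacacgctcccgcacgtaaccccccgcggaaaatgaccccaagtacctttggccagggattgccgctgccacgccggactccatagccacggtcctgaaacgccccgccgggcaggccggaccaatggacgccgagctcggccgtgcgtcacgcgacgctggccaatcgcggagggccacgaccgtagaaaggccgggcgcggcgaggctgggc
The FOXA1 window held CTTTGT at 107 and 89 bases before the start site and its reverse complement at 231 bases before it. CTTTGT occurred in 13.7% of all 35116 windows of this length. In the GATA3 window the reverse complement of TGACAG began 174 bases before the start site, and 13% of all windows held this motif. The XBP1 window held none of the motifs. Over all 22 windows of the members, which include alternative start sites of ESR1, GATA3, PGR, EGFR and XBP1, TGACAG was found in 4 (ESR1 and GATA3), CACGTG in 1 (GATA3), CTTTGA in 1 (GATA3) and CTTTGT in 3 (ESR1, FOXA1 and GATA3). CACGTG was held by 6.34% and CTTTGA by 11.2% of all windows. The estrogen receptor, GATA and forkhead motifs were in none of the members' windows, and in 12.1%, 9.17% and 2.98% of all windows. The matches in the windows shown do not overlap each other. They describe letters in a window and no binding.

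The hormone receptors gave low signals in all 3 groups. ESR1 was 7.09, 7.03 and 7.21 on UT arrays, 7.03, 7.23 and 7.05 on SCR, and 6.76, 6.86 and 7.0 on SID. The SID arrays were thus below every SCR and UT array, by small amounts. With 3 arrays a group, its means of 7.11 ± 0.09 (SD) in UT, 7.10 ± 0.11 in SCR and 6.87 ± 0.12 in SID gave a difference between SID and SCR of -0.23 ± 0.09 (SE), a 1.18-fold lower level, which did not pass (limma, adjusted p = 0.657). The difference was -0.28, -0.38 and -0.05 in replicates 1, 2 and 3. The other probe of ESR1 was 6.05, 6.13 and 6.26 on SCR and 6.11, 6.26 and 6.13 on SID, so the groups overlapped there and the probes disagreed. With both probes averaged the difference was -0.11. In a bulk culture, less RNA per cell and fewer expressing cells cannot be told apart.

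PGR was 5.61, 5.64 and 5.62 on UT, 5.69, 5.72 and 5.69 on SCR, and 5.75, 5.68 and 5.70 on SID. No array left this narrow band of 0.14 log2. SID and SCR differed by 0.01 ± 0.06 (SE), with a 95% interval of -0.12 to 0.14, and by 0.06, -0.04 and 0.01 in replicates 1, 2 and 3. As a rough floor, 341 olfactory receptor genes, which breast cells are not known to use, had a median of 5.66 and a middle 90% from 4.76 to 7.05. Probes differ in affinity, so this range is only a description. The means of PGR (5.68), ERBB4 (6.46) and ESR1 (7.03) over the 9 arrays lay within it, and those of the other 6 members above it.

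**Figure D1:**
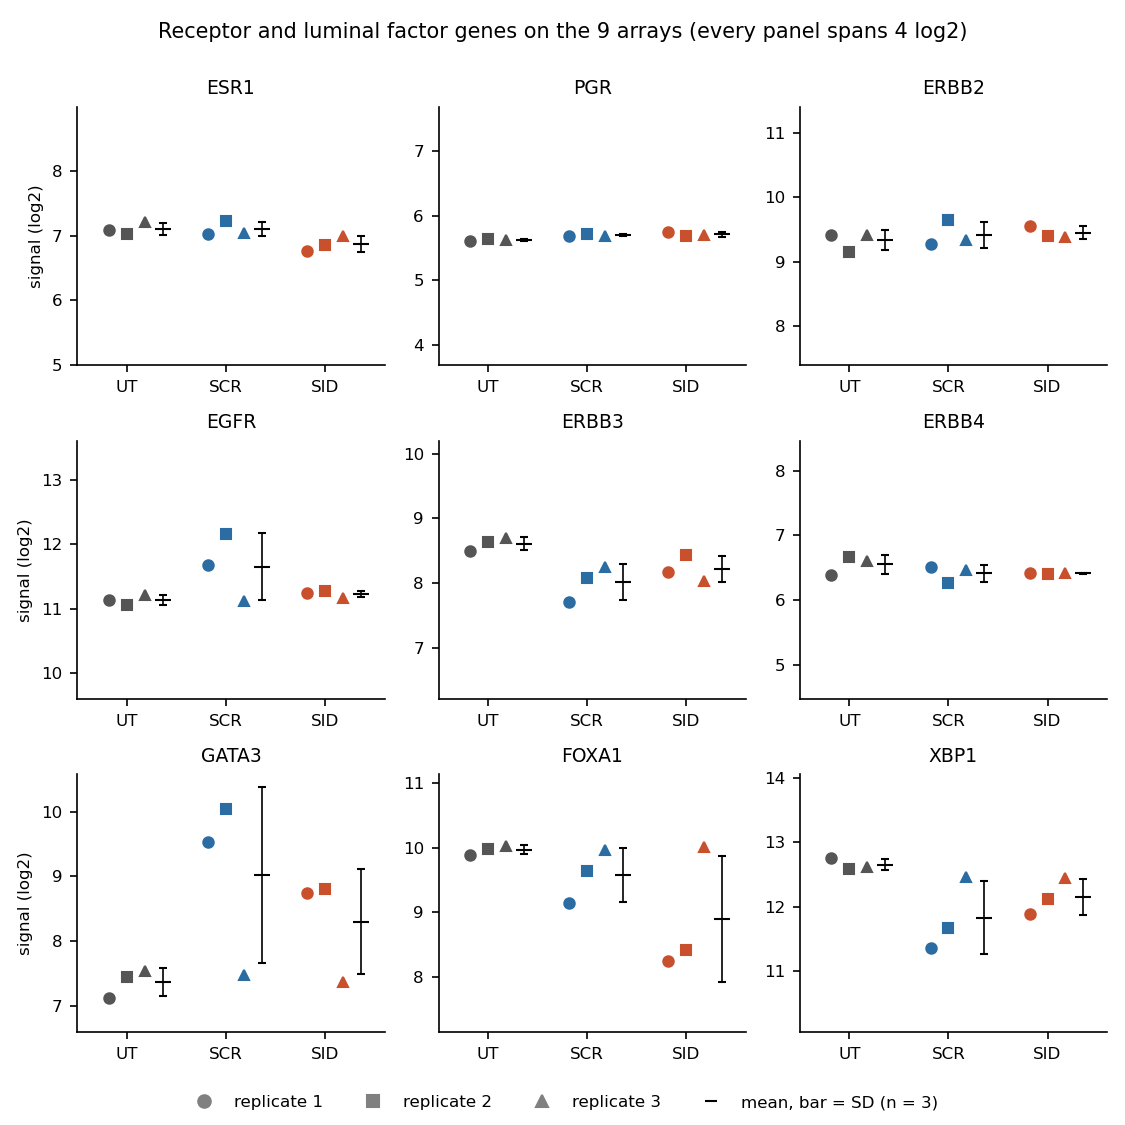
Log2 signal of each member on the 9 arrays, by group (x axis) and replicate (symbol), with the mean and SD of each group of 3 beside the points; every panel spans 4 log2. GATA3, FOXA1 and XBP1 separate replicates 1 and 2 of SCR and SID from the other 5 arrays, EGFR is highest on SCR replicates 1 and 2, and ESR1, PGR, ERBB2 and ERBB4 range over at most 0.49 log2.

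ERBB2, the gene of HER2, was 9.42, 9.15 and 9.42 on UT, 9.27, 9.64 and 9.33 on SCR, and 9.56, 9.40 and 9.39 on SID. The 3 groups overlapped, and its whole range over the 9 arrays was 0.49. The difference between SID and SCR was 0.04 ± 0.12 (SE; 95% interval -0.25 to 0.33), and it was positive in replicates 1 and 3 (0.29 and 0.06) and negative in replicate 2 (-0.24). Whether this level is that of a HER2-negative line cannot be read from an array without a positive control.

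EGFR was 11.13, 11.06 and 11.22 on UT, 11.68, 12.15 and 11.12 on SCR, and 11.25, 11.27 and 11.17 on SID. SCR replicates 1 and 2 were highest, SID replicates 1 and 2 lay just above the other 5 arrays, and the SID mean of 11.23 ± 0.05 (SD, n = 3) lay near the UT mean of 11.13 ± 0.08 (SD, n = 3). SID minus SCR was -0.43 and -0.89 in replicates 1 and 2 and 0.05 in replicate 3. The mean of -0.42 ± 0.23 (SE) did not pass on the 9 arrays (limma, adjusted p = 0.691), nor did -0.66 ± 0.18 (SE) with replicates 1 and 2 alone (limma, adjusted p = 0.0816).

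ERBB3, the partner receptor for neuregulins, was 8.50, 8.63 and 8.70 on UT, 7.71, 8.08 and 8.25 on SCR, and 8.17, 8.43 and 8.03 on SID. Every array of either peptide was below every UT array, those of replicate 3 included. The mean difference from UT was -0.59 ± 0.16 (SE) for SCR, a 1.51-fold lower level, and -0.40 ± 0.16 (SE) for SID (limma, adjusted p = 0.332 and 0.388). Between the peptides, SID was 0.45 and 0.35 higher in replicates 1 and 2, and the difference in replicate 3 was -0.22.

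ERBB4 was 6.39, 6.67 and 6.60 on UT, 6.51, 6.27 and 6.46 on SCR, and 6.42, 6.41 and 6.42 on SID. The groups overlapped, and SID minus SCR was 0.01 ± 0.10 (SE; 95% interval -0.22 to 0.23), or -0.08, 0.15 and -0.04 by replicate.

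GATA3 had the widest range of the members, 2.93 log2. It was 7.12, 7.44 and 7.54 on UT, 9.54, 10.05 and 7.48 on SCR, and 8.74, 8.80 and 7.36 on SID. SCR replicates 1 and 2 were highest, SID replicates 1 and 2 lay between, and replicate 3 of both peptides was among the UT arrays. SID minus SCR was -0.81, -1.25 and -0.12 in replicates 1, 2 and 3. The mean difference of -0.73 had an SE of 0.68 and a 95% interval of -2.30 to 0.85 on the 9 arrays (limma, adjusted p = 0.843). With replicates 1 and 2 alone it was -1.03 ± 0.19 (SE), a 2.04-fold lower level in SID, and passed (limma, adjusted p = 0.0393, the lowest of 22 alternatives, of which the highest was 1.0). Leaving out SCR replicate 2 brought the mean difference to -0.22, and leaving out SCR replicate 3 to -1.5.

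FOXA1 was 9.89, 9.98 and 10.03 on UT, 9.14, 9.64 and 9.97 on SCR, and 8.25, 8.42 and 10.01 on SID. SID replicates 1 and 2 were the lowest of all arrays, and replicate 3 of SCR and SID differed from the UT mean by 0.01 and 0.05. SID minus SCR was -0.89 and -1.22 in replicates 1 and 2 and 0.04 in replicate 3. The mean of -0.69 ± 0.45 (SE) did not pass on the 9 arrays (limma, adjusted p = 0.741). With replicates 1 and 2 alone the difference was -1.05 ± 0.19 (SE), a 2.07-fold lower level, and passed (limma, adjusted p = 0.0400). Leaving out SID replicate 3 alone keeps SCR replicate 3, so array set and peptide are mixed in that fit. The FOXA1 difference was -1.25 there (limma, adjusted p = 0.0197). Its adjusted p ranged from 0.0127 to 1.0 over 22 alternatives (limma and the methods' t-test).

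XBP1 was 12.75, 12.59 and 12.62 on UT, 11.36, 11.67 and 12.46 on SCR, and 11.89, 12.12 and 12.45 on SID. Every peptide array was below every UT array, with SCR replicates 1 and 2 lowest. SID minus SCR was 0.53 and 0.45 in replicates 1 and 2 and -0.01 in replicate 3. This direction is opposite to that of GATA3 and FOXA1 in the same replicates. Neither the mean of 0.32 ± 0.27 (SE) on the 9 arrays (limma, adjusted p = 0.818) nor the 0.49 ± 0.15 (SE) of replicates 1 and 2 alone (limma, adjusted p = 0.114) passed.

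**Figure D2:**
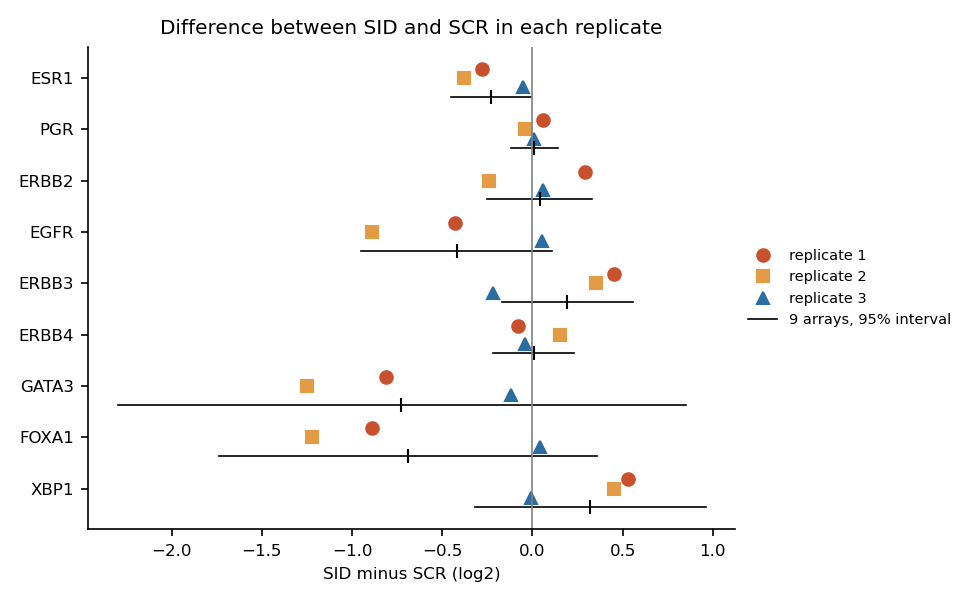
Difference between SID and SCR (x axis, log2) for each member (y axis) in each of the 3 replicates (symbols), with the mean difference and its 95% interval from the fit on 9 arrays in black below. GATA3 (-0.81 and -1.25) and FOXA1 (-0.89 and -1.22) were lower in SID in replicates 1 and 2, while in replicate 3 all members lay between -0.22 and 0.06.

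A call required an adjusted p under 0.05 and a difference of more than 1 log2. Between SID and SCR 0 of the 9 members and 0% of all probes were called by limma on the 9 arrays. An unadjusted p under 0.05 was given to 1474 probes and to 1 member, ESR1, and the methods' t-test called 0 probes after adjustment as well. The members' differences were positive for 5 and negative for 4, with a median of 0.01, beside a median of 0.02 over all genes. ESR1 was the 1 member whose SID arrays lay below all SCR arrays, as did 1.65% of all probes. With replicates 1 and 2 alone, limma called GATA3 and FOXA1 lower, 2 of 9 members, against 2.64% of all probes called lower. Replicate 3 holds 1 SID and 1 SCR array. A fit there has no spread within either group, so only the differences are given for it.

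Against UT, which shares its arrays between both comparisons, 0 members and again 0% of probes were called for SID and 0% for SCR (limma, 9 arrays). In each of the 2 comparisons 3 members had an unadjusted p under 0.05 (limma). So had 2432 of 19460 probes for SID and 2811 for SCR. For SID, 1 member (PGR) was above all UT arrays, as were 10.7% of probes, and 3 (ESR1, ERBB3 and XBP1) were below, as were 8.05%. For SCR, 1 member (PGR) was above, with 9.52% of probes, and 2 (ERBB3 and XBP1) were below, with 12.0%. Without replicate 3, limma called GATA3 higher in SID than in UT (1.4, adjusted p = 0.000574) among 6.91% of probes called higher. It called FOXA1 lower (-1.63, adjusted p = 6.31e-05) among 6.38% called lower. In SCR it called GATA3 higher (2.43, adjusted p = 8.16e-05) among 6.58% called higher, and XBP1 lower (-1.14, adjusted p = 0.000326) among 4.82% called lower. In those fits UT lies in one set of arrays and both peptides in the other, so treatment and array set cannot be told apart. In replicate 3, which lies in the same set as UT, GATA3 differed from the UT mean by 0.11 in SCR and -0.01 in SID, and FOXA1 by 0.01 and 0.05. XBP1 differed by -0.19 and -0.20 and ERBB3 by -0.36 and -0.58, with both peptide arrays below all UT arrays. Each peptide has 1 array there, so these are differences without a test.

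The 4 members that ranged over more than 1 log2 were compared with all other genes by the root mean square difference of their centered profiles on the 9 arrays. The profile of GATA3 was closest to those of LRRC8C (0.12 log2), NLRP2 (0.13) and UBASH3B (0.16). DMKN (0.12), PCNX3 (0.15) and C15orf40 (0.16) came closest to FOXA1. STAT5B (0.06), TMCC1 (0.07) and MARCHF6 (0.08) came closest to XBP1, and RTN4RL1 (0.06), CCDC9B (0.07) and PCSK5 (0.07) to EGFR. None of these 12 genes is a member or belongs to the lists below.

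Of the 11 listed ERBB ligands, 10 were measured. On replicates 1 and 2 of SCR and SID, 4 of them were higher and 2 lower by more than 1 log2 than on the other 5 arrays, beside 5.96% and 4.57% of all genes. NRG1, a neuregulin that binds ERBB3 and ERBB4, was 5.98, 5.78 and 6.06 on UT, 9.96, 10.04 and 6.02 on SCR, and 8.13, 7.05 and 6.09 on SID. It was thus high on SCR replicates 1 and 2 only, intermediate on SID replicates 1 and 2, and at the UT level on replicate 3. Between SID and SCR it was -1.58 on the 9 arrays (limma, adjusted p = 0.750) and -2.41 with replicates 1 and 2 alone, which passed (limma, adjusted p = 0.0306). EPGN, a ligand of EGFR, was 9.25, 8.99 and 9.15 on UT, 7.21, 7.35 and 9.09 on SCR, and 5.52, 5.46 and 8.83 on SID. It was lowest on SID replicates 1 and 2, with a difference of -1.79 there (limma, adjusted p = 0.0160). For EREG and HBEGF, further ligands of EGFR and ERBB4, the difference in replicates 1 and 2 was -0.51 and -0.40, small beside the gap between array sets. HBEGF was 12.34 and 12.53 on SCR and 11.87 and 12.20 on SID there, and 7.79 to 8.12 on the other 5 arrays. The remaining 6 measured ligands differed between SID and SCR by -0.16 to 0.13 on the 9 arrays. Of all 10, 8 were negative and 2 positive, 0 were called on the 9 arrays and 0 had an unadjusted p under 0.05 (limma). With replicates 1 and 2 alone 2 were called lower, beside 2.64% of all probes.

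**Figure D3:**
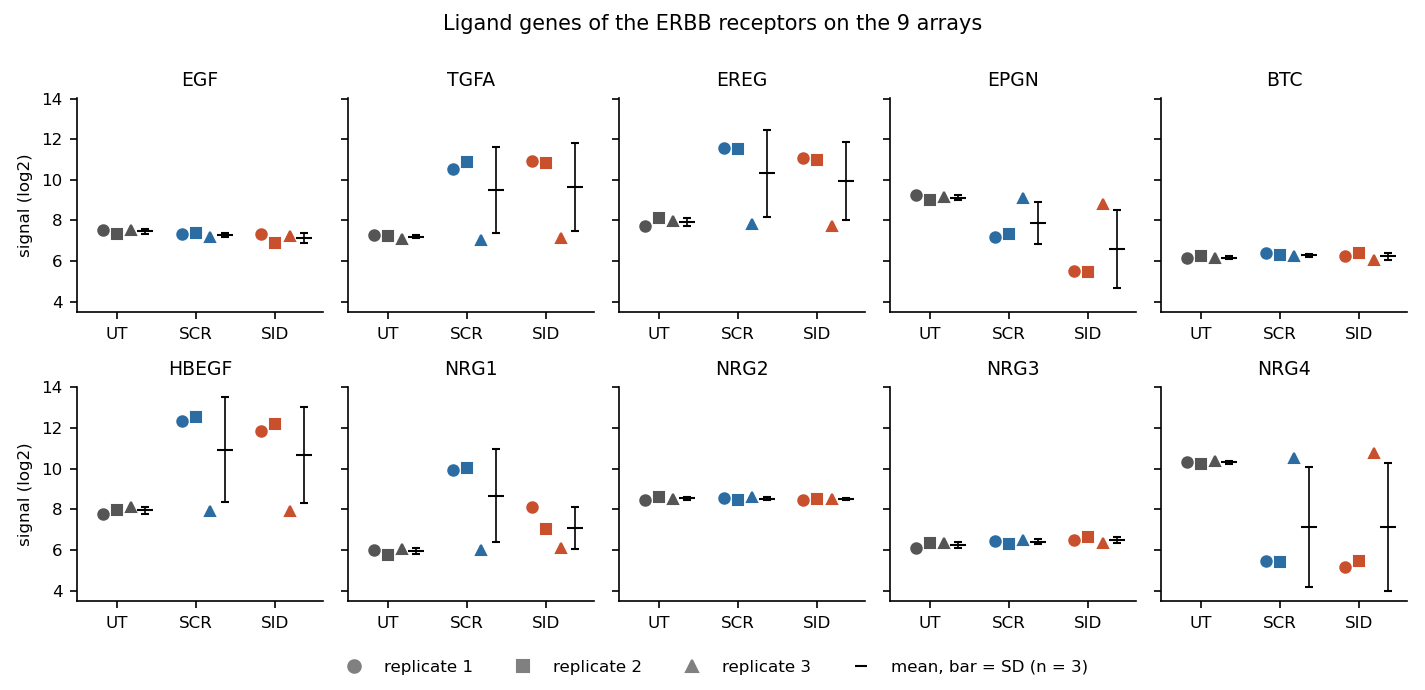
Log2 signal of the 10 measured ERBB ligand genes on the 9 arrays, by group (x axis) and replicate (symbol), with the mean and SD of each group of 3; all panels share the y axis. EREG, HBEGF, NRG1 and TGFA were higher, and EPGN and NRG4 lower (TGFA and NRG4 named after their values were seen), on replicates 1 and 2 of SCR and SID than on the other 5 arrays, while NRG1 and EPGN also separate SID from SCR in these replicates.

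All 21 listed adaptors and feedback inhibitors of ERBB signaling were measured. CBLB, a ubiquitin ligase that targets activated receptors, was 10.16, 10.03 and 10.14 on UT, 9.0, 9.04 and 10.15 on SCR, and 10.44, 10.50 and 10.12 on SID. Only SCR replicates 1 and 2 were low, and the SID arrays stayed near UT. LRIG1, a membrane protein that promotes the degradation of ERBB receptors, was 8.59, 8.62 and 9.10 on SCR and 9.63, 9.66 and 9.42 on SID. For LRIG1 the SID arrays lay above all SCR arrays, as they did for 4.01% of all probes. With replicates 1 and 2 alone CBLB was 1.45 and LRIG1 1.03 higher in SID (limma, adjusted p = 0.0160 and 0.0161). SPRY2, a feedback inhibitor of receptor tyrosine kinase signaling, was 0.92 higher in those replicates, under the fold limit. In the whole list 12 were positive and 9 negative between SID and SCR with a median of 0.03. On the 9 arrays 3 had an unadjusted p under 0.05, beside 1474 of 19460 probes, and 0 were called (limma). With replicates 1 and 2 alone 2 were called higher and 0 lower (limma, beside 1.77% of all probes called higher).

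Of 18 listed target genes of the estrogen receptor 16 were measured, and of 12 hormone receptors and coregulators 8. STC2, a secreted glycoprotein, was 8.03, 8.53 and 9.58 on SCR and 6.56, 6.99 and 10.05 on SID, lower in replicates 1 and 2 and higher in replicate 3. CA12, a carbonic anhydrase, was 9.43, 9.72 and 8.05 on SCR and 10.86, 10.89 and 7.92 on SID, in the opposite direction. These were the targets called with replicates 1 and 2 alone, STC2 lower (-1.51, limma, adjusted p = 0.0306) and CA12 higher (1.30, limma, adjusted p = 0.0183). Of all probes, 2.64% were called lower and 1.77% higher in those replicates. SERPINA1, the gene of alpha-1 antitrypsin, differed by 0.98 there, under the fold limit. The median of the 16 targets was 0.06, with 10 positive and 6 negative and 0 called on the 9 arrays (limma, 1 with an unadjusted p under 0.05). NRIP1, a corepressor of the estrogen receptor and itself one of its targets, was 11.14, 11.38 and 10.15 on SCR and 10.11, 8.93 and 10.19 on SID. Its -1.74 in replicates 1 and 2 did not pass (limma, adjusted p = 0.0661). The coactivator NCOA1 differed by 0.24 and the orphan receptor ESRRA by 0.22 on the 9 arrays, and of the 8 genes 0 were called there (limma, 1 with an unadjusted p under 0.05).

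The luminal and basal genes bear on a shift of state. All 30 listed luminal genes were measured, and 18 of them were negative and 12 positive between SID and SCR on the 9 arrays, with a median of -0.20. By replicate, the median was -0.12, -0.55 and 0.04. The mean level of the 30 genes was 8.35 to 8.44 on UT arrays, 8.42 to 9.33 on SCR arrays and 8.45 to 8.82 on SID arrays. CD24, a surface glycoprotein of luminal cells, was 9.73, 9.25 and 9.40 on UT, 9.21, 9.85 and 9.28 on SCR, and 6.80, 5.90 and 9.25 on SID. It was low on SID replicates 1 and 2 and level on all other arrays. SPDEF, a luminal ETS factor, was 9.71, 10.07 and 7.87 on SCR and 8.17, 8.06 and 7.84 on SID. RAB25, an epithelial trafficking GTPase, and AGR2, a protein disulfide isomerase, were likewise highest on SCR replicates 1 and 2. With replicates 1 and 2 alone these 4 were called lower in SID and 0 of the 30 higher (limma, beside 2.64% and 1.77% of all probes): CD24 by -3.18 (adjusted p = 0.0217), RAB25 by -1.86 (0.0429), SPDEF by -1.78 (0.0165) and AGR2 by -1.37 (0.0161). On the 9 arrays 0 were called and 4 had an unadjusted p under 0.05, as had 1474 of 19460 probes (limma).

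Basal genes were measured for 13 of 21 listed, with a mean level of 8.18 to 8.24 on UT, 8.28 to 9.63 on SCR and 8.34 to 9.08 on SID arrays. CDH3, the P-cadherin gene, was 9.48, 10.61 and 6.88 on SCR and 6.86, 7.01 and 6.65 on SID. KRT5, a basal keratin, was 9.28, 10.18 and 7.82 on SCR and 6.99, 7.29 and 8.16 on SID. SFRP1, a secreted Wnt antagonist that marks basal-like tumors, was 9.07, 9.56 and 7.15 on SCR and 6.92, 7.03 and 7.08 on SID. For all 3, SCR replicates 1 and 2 stood above every other array. They were called lower with replicates 1 and 2 alone (-3.11, -2.59 and -2.34, limma, adjusted p = 0.0227, 0.0228 and 0.0161), and 0 of the 13 were called higher, against 2.64% of all probes called lower and 1.77% higher. LAMB3, a laminin chain, was 0.51 higher in SID there. The list had 9 positive and 4 negative members on the 9 arrays and a median of 0.08. Of these 13 genes 0 were called and 3 had an unadjusted p under 0.05, beside 1474 of 19460 probes (limma). In replicates 1 and 2 the called luminal and the called basal genes were thus lower in SID alike, but they were 4 of 30 and 3 of 13. On the 9 arrays 12 luminal and 9 basal genes went the other way. The luminal genes DNALI1 and FBP1, named after their values were seen, were 0.98 and 0.89 higher in SID in replicates 1 and 2, under the fold limit. The mesenchymal marker SPARC was also lower there, by -3.69 (limma, adjusted p = 0.0161), while FN1 was 0.45 higher and did not pass (limma, adjusted p = 0.0712).

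Targets of XBP1 and other genes of the unfolded protein response were all measured, 24 of 24. Between SID and SCR 19 were positive and 5 negative on the 9 arrays, with a median of 0.28, and by replicate the median was 0.28, 0.40 and 0.10 beside medians of 0.00, 0.07 and 0.01 over all genes. The chaperone gene DNAJB9 was 8.96, 8.80 and 8.31 on SCR and 9.57, 10.23 and 8.48 on SID. HERPUD1, a component of endoplasmic reticulum degradation, was 10.82, 10.84 and 11.22 on SCR and 11.27, 12.09 and 11.50 on SID. Both were higher in SID than in SCR in each of the 3 replicates. On UT arrays DNAJB9 was 8.80, 8.69 and 8.80, and HERPUD1 was 11.28, 11.48 and 11.49, above all SCR arrays. The mean level of the 24 genes was 11.19 to 11.24 on UT, 11.13 to 11.18 on SCR and 11.25 to 11.61 on SID arrays. SEC24D, a coat protein of vesicles leaving the endoplasmic reticulum, and EDEM2, which acts in glycoprotein degradation, differed by 0.64 each on the 9 arrays. Against UT, EDEM2 differed by -1.02 in SCR and -0.38 in SID, and SEC24D by 0.13 and 0.77. No gene of the list was called on the 9 arrays or with replicates 1 and 2 alone, so 0 of 24 passed in either direction. An unadjusted p under 0.05 on the 9 arrays was given to 8 of them, beside 1474 of 19460 probes (limma). The SID and SCR replicate 3 levels of XBP1 itself were equal to 0.01 log2, as given above.

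Of the 10 other GATA and FOXA family genes, 5 were positive and 5 negative with a median of 0.01. TRPS1, a GATA-type transcriptional repressor, was 9.24, 9.30 and 7.02 on SCR and 8.38, 7.92 and 7.03 on SID and, as for GATA3, highest on SCR replicates 1 and 2, then on SID replicates 1 and 2. It was the 1 gene of this list called with replicates 1 and 2 alone (-1.12, limma, adjusted p = 0.0304), beside 2.64% of all probes called lower. FOXA2 differed by -0.80 and GATA6 by 0.80 in those replicates, and on the 9 arrays 0 of the 10 had an unadjusted p under 0.05 (limma).

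**Figure D4:**
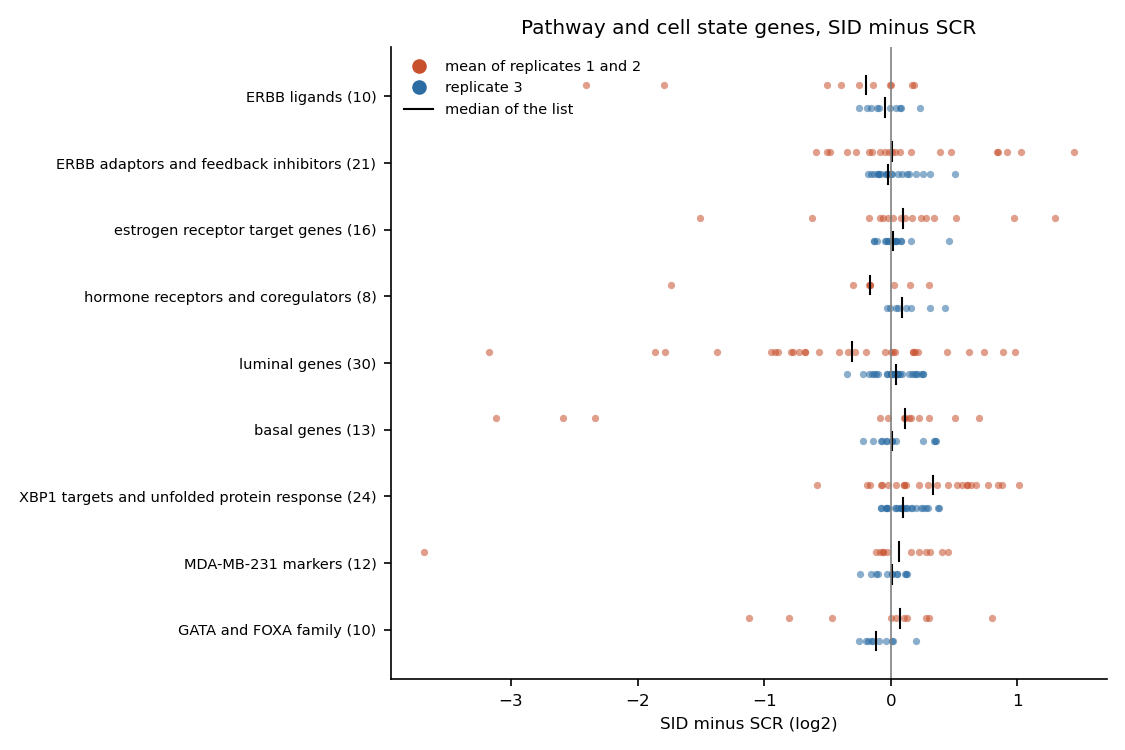
Difference between SID and SCR (x axis, log2) for each measured gene of the 9 lists (rows, number of genes in parentheses), as the mean of replicates 1 and 2 (red) and in replicate 3 (blue), with the list median as a black bar. In replicates 1 and 2 the points reach -3.69 (SPARC) and 1.45 (CBLB), while in replicate 3 the list medians lie between -0.12 and 0.10.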

How the data were processed

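RNA of 9 samples was measured on Affymetrix arrays. The log2 values were deposited by the authors, and per the labels Affymetrix Expression Console, RMA and Transcriptome Analysis Console were used, in versions not given in the sources used here. That the values are log2 was inferred from their range (3.75 to 14.94). Of 33297 probes, 19460 have 1 gene symbol in GEO's platform annotation, 1754 several and 12083 none, and the first kind was tested. A model with 1 mean per group was fitted to all 9 arrays (limma 3.58.1, functions lmFit and eBayes, R 4.3.3), and Benjamini-Hochberg adjustment covered all tested probes. The study's ChipInspector analysis works on single probes and was not repeated. The fit was also run on simulated data with independent noise and no array sets, so that run does not bear on the split seen here. Named genes are the members, the 2 to 4 genes of each list with the largest mean difference between SID and SCR, and the 3 nearest profiles. The members, lists, rule for naming genes and alternatives were chosen with earlier results of these data known. SCR and SID replicate numbers were taken to pair, and a replicate block was tried. The deviations of same-numbered arrays from their group means correlated at 0.77, 0.57 and 0.79. Replicate 3 of both peptides lies in the other array set, and arrays of different numbers were not compared. These correlations therefore cannot show that replicates 1 and 2 pair by number. Further alternatives were array weights, the array set as a term, quantile normalization, median centering, other filters and tests, and leaving out arrays. Figures were drawn with matplotlib 3.10.9. The number of arrays limits the precision. Listed genes without a probe of their own symbol alone were not analysed here.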

Additional observations from a re-analysis of the deposited data

How the results depend on the processing

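On all 9 arrays limma called 0 probes and 0 members in each comparison. So did quantile normalization, median centering, both filters, trend with robust estimation, the Student's t-test and the fit of 2 groups. With replicate 3 alone each peptide has 1 array, so calls there are not counted. The replicate block also gave 0 calls (lowest adjusted p = 0.526 between SID and SCR). With array weights limma called 761 probes between SID and SCR, 2389 between SID and UT and 2116 between SCR and UT, and 0, 2 and 2 members. The weight was 0.176 for SCR replicate 3, 0.137 for SID replicate 3 and 0.7 to 6.92 for the other arrays. This fit thus rests mainly on replicates 1 and 2 of the peptides, and against UT it mixes array set and treatment. With replicates 1 and 2 of SCR and SID the counts were 859, 2586 and 2217 probes and 2, 2 and 2 members. The array set as a term gave 0, 1 and 0 probes and 0 members. Leaving out 1 array at a time gave 0 to 648 probes and 0 to 1 members between SID and SCR, 0 to 1946 and 0 to 1 between SID and UT, and 0 to 1071 and 0 to 2 between SCR and UT. The highest counts came without SID replicate 3 (648 and 1946) and without SCR replicate 3 (1071, and 223 between SID and SCR). Those fits split the groups unequally between the array sets, so array set and peptide are mixed in them. Of the named genes outside the members, 15 were called between SID and SCR with replicates 1 and 2. That fit is 1 of the alternatives, so a lowest adjusted p under 0.05 was fixed in advance for these genes. Their adjusted p reached 0.00198 to 0.0304 under the most favorable alternative (limma) and 1.0 under the least favorable. The cause was not tested.

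Differences that turned their sign were mostly near 0 or those of replicate 3. In replicate 3 SID minus SCR became 0.05 for EGFR, -0.22 for ERBB3, -0.04 for ERBB4, 0.04 for FOXA1, -0.01 for XBP1, 0.07 for NRG1, -0.02 for CBLB and SPRY2, 0.46 for STC2, -0.13 for CA12, -0.04 for SERPINA1, 0.04 for NRIP1, 0.07 for RAB25, 0.02 for AGR2, 0.35 for KRT5, 0.01 for SPARC and TRPS1, and -0.25 for GATA6. There SID minus UT became -0.01 for GATA3 and 0.05 for FOXA1, and SCR minus UT -0.02 for EGFR and 0.01 for FOXA1. With the array set as a term, SID minus UT became -0.20 for EGFR and -0.31 for GATA3, and SCR minus UT 0.37 for FOXA1 and 0.03 for ESR1. SCR minus UT of ESR1 became 0.001 after median centering and 0.02 with replicates 1 and 2, and array weights gave -0.05 for ERBB2 there and -0.04 for ERBB4 between SID and SCR. Leaving out 1 array moved SID minus SCR across 0 for PGR (-0.01 to 0.02), ERBB2 (-0.04 to 0.15), ERBB4 (-0.06 to 0.05), EREG (-1.61 to 0.73), HBEGF (-1.76 to 1.10), SERPINA1 (-0.86 to 2.48), NCOA1 (-0.0004 to 0.39), LAMB3 (-0.57 to 1.5) and FN1 (-0.85 to 1.64). It did so for SCR minus UT of ESR1 (-0.07 to 0.04) and ERBB2 (-0.03 to 0.16).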
